A study of Mus musculus with 6 samples.

Results

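This report describes 10 genes that carry the signal of TNFα from the cell surface, namely the 2 TNF receptors and 8 proteins that work directly downstream of them. The rule used gene names alone, and the list was drawn up with earlier results of these data known. They are Tnfrsf1a, Tnfrsf1b, Tradd, Ripk1, Traf1, Traf2, Birc2, Birc3, Xiap and Cflar. They make up 10 of the 20275 protein coding genes in the deposited table, and 11 of its 27794 RefSeq entries, since Cflar has 2 and the entry with the higher mean was used. The RNA-seq asked how the transcriptome of mouse embryonic fibroblasts (MEFs) changes with time in TNFα. The MEFs were primary wildtype cells of strain C57BL/6x 129, grown from littermate embryos of day 13.5 and passaged 4 times. One group was untreated, and the other 3 received 20 ng/ml of TNFα for 1.5, 6 or 24 hr. Each group was 1 library, so no comparison over time has a replicate and no test was made. H3K4me3, a histone mark found at active and poised promoters, was profiled in 1 ChIP-seq library of untreated MEFs against 1 input library.

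TNFα binds TNFR1 (Tnfrsf1a), whose death domain recruits TRADD and RIPK1, and TNFR2 (Tnfrsf1b), which has no death domain and binds TRAF proteins directly. TRAF2 brings in the ubiquitin ligases cIAP1 (Birc2) and cIAP2 (Birc3), and the ubiquitin chains they build on RIPK1 recruit the kinases that activate NF-κB. When this complex is not held together, RIPK1 can instead join caspase-8 in a complex that kills the cell, which c-FLIP (Cflar) and the caspase inhibitor XIAP restrain. Traf1, Birc2, Birc3 and Cflar are textbook targets of NF-κB, so the pathway feeds back on its own parts.

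Among the 10 genes, Traf1 was the lowest in untreated MEFs and was the only member without an H3K4me3 peak at a coding start there. The 250 bases before the RefSeq start of 3 genes are shown because they span this contrast. The sequences come from the RefSeq promoter table (GRCm38.p6) and were placed in mm9 by an exact match. They are written 5′ to 3′ in the direction of the gene, with each CG pair in capitals, since clusters of CG pairs mark the promoters at which H3K4me3 usually lies. Traf1 at chr2:34817293-34817542 (minus strand) lay under no peak, while Birc3 at chr9:7873171-7873420 (minus strand) and Traf2 at chr2:25402461-25402710 (minus strand) did.

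Traf1: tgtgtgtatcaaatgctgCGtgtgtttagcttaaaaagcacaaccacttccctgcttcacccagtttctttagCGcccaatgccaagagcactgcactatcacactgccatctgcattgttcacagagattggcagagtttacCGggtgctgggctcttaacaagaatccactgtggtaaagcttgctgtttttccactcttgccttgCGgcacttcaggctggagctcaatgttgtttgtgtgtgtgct

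Birc3: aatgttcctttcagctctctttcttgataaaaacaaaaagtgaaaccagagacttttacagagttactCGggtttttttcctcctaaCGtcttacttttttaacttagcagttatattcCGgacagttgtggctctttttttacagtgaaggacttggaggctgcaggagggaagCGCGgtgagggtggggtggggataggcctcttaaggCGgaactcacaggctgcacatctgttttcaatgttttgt

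Traf2: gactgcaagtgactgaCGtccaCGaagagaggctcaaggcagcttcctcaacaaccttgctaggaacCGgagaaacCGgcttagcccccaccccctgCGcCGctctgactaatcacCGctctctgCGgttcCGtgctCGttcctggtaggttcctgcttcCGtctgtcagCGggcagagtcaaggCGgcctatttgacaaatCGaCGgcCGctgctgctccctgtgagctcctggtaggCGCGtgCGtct

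The window of Traf1 held 4 CG pairs, that of Birc3 held 6 and that of Traf2 held 19. The median of all 32851 windows of this length in the table was 6, with quartiles of 2 and 16. So the windows of Traf1 and Birc3 were both within the middle range of promoters in CG content, although only that of Birc3 lay under a peak. Of the other members, Cflar had 7 CG pairs, Tnfrsf1a 9 and Tnfrsf1b 12. Birc2, Ripk1 and Xiap each had more than 1 RefSeq start, with 19 and 31 pairs for Birc2, 19 and 32 for Ripk1, and 1, 1 and 13 for Xiap. No window of Tradd was in the table. The κB consensus was searched on both strands of the 13 windows of these 9 genes, each extended to 300 bases by 50 bases past the start. It was found in 1 of them, from base 23 to base 32 after a start of Xiap, against 8.46% of all windows. The stretch of 30 bases around it is shown with the match in capitals.

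Xiap: cccctcctccGGGACCCTCCcctcgggaac

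A match is a run of letters and not a binding site, and enhancers and sites farther from the start were not searched.

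The scale of the values differed between libraries. The 6 hr library had the lowest sum of values, 0.563 times that of the untreated library, against 1.19 times at 1.5 hr and 0.964 times at 24 hr. Reads estimated from the smallest steps between low values gave 1.98e+06 reads at 6 hr and 3.65e+06 in the untreated library over 7748 genes with a single transcript, with 5.05e+06 at 1.5 hr and 4.63e+06 at 24 hr. These estimates cover only reads that entered the table and are not the totals of mapped reads. The median log2 ratio to untreated of 6050 coding genes with a mean level of at least 100 was 0.44 for 1.5 hr, -0.74 for 6 hr and 0.10 for 24 hr. For this reason each ratio of the 10 genes is given as deposited and again after scaling by a median of ratios over coding entries, which brought these medians to 0.01, 0.06 and 0.04. All 10 fibroblast markers were detected, led by Col1a1 at 44002, and their sum ranged from 43327 to 90923. The 8 macrophage markers in the table were also all detected. Their sum was 4216 in untreated MEFs, 18445 after 1.5 hr, 3649 after 6 hr and 9346 after 24 hr, mostly from Lyz2. Csf1r was at 295, 287, 90.1 and 124 and Cd68 at 605, 823, 202 and 312 in the same order, both below untreated at 24 hr. Tyrobp was at 916, 1983, 444 and 1241, and Emr1 at 26.3, 74.0, 13.7 and 27.3. Itgam was at 41.1, 64.4, 20.2 and 52.4, and Ptprc at 13.4, 30.8, 8.63 and 16.6. As deposited, Tyrobp, Emr1, Itgam and Ptprc were, like Lyz2, highest at 1.5 hr and above untreated at 24 hr. The part of such cells in the results below was not tested. The 5 endothelial markers were each under 10 in every library, Epcam and Cd3e were at 0, and other epithelial markers summed to no more than 295. In bulk samples, fewer cells of a type and less RNA per cell cannot be told apart.

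Levels are in the deposited RPKM units, which are per length of transcript and so allow genes to be ranked, but have a scale of their own. In untreated MEFs the 10 genes covered more than 2 orders of magnitude. Tnfrsf1a stood highest at 590, above 92.5% of coding genes, and was 2.82 times the next member. Traf2 followed at 209 and Tradd at 180, a pair that differed by 1.16 times. Ripk1 came next at 101, then Cflar at 74.4, Tnfrsf1b at 48.1, Birc3 at 30.2, Birc2 at 17.5 and Xiap at 13.3, with steps of no more than 1.79 times between neighbours. With 1 library the spread between cultures is unknown, so none of these neighbours was shown to differ. Traf1 was last at 2.04, with Xiap 6.52 times higher, and above 32.2% of coding genes. Thus, in the deposited values before TNFα, Tnfrsf1a and the adaptors of the first complex were the abundant transcripts, and the IAP genes and Traf1 the scarce ones. GC content was 38.2% to 47.5% for the IAP genes and 55.9% to 57.4% for Tnfrsf1a, Traf2 and Tradd. It was 54.8% for Traf1 and 47.8% for Ripk1, which thus went the other way. Whether base composition had a part in this ranking was not tested.

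**Figure D1:**
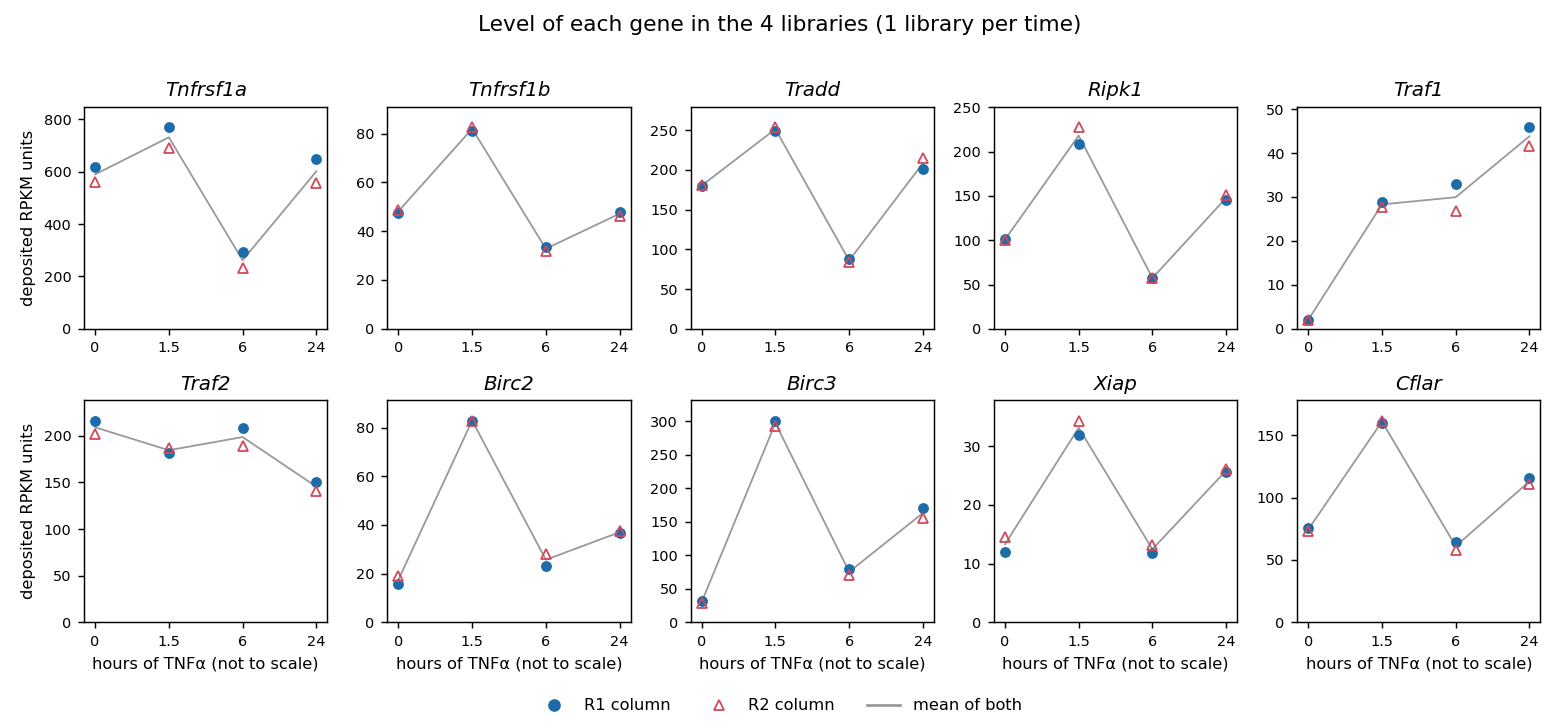
Level of each gene (deposited RPKM units, each panel from 0 on its own scale) against hours of TNFα, with the R1 and R2 columns of each library as points and their mean as a line. Traf1 climbs from 2.04 to 43.8 by 24 hr and Traf2 is highest untreated, while the other 8 genes are highest at 1.5 hr, all in the values as deposited.

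As deposited, 6 of the 10 genes were at least 2-fold higher than untreated at 1.5 hr and none was 2-fold lower. Of all coding genes above 0 in either library, 29.5% were 2-fold higher and 17.4% were 2-fold lower at this time. At 6 hr, 2 genes were 2-fold higher, against 5.09% of coding genes, and 2 were 2-fold lower, against 39.3%. At 24 hr, 3 were 2-fold higher, against 17.9%, and none was 2-fold lower, against 22.1%. The median log2 ratio of the 10 genes was 1.12 for 1.5 hr, -0.19 for 6 hr and 0.58 for 24 hr, which lay above the medians of coding genes at each time. After scaling by the median of ratios, 3 genes were 2-fold higher at every time and none was lower, against 17.6%, 12.2% and 16.5% of coding genes higher, and 25%, 15.4% and 23.5% lower, at 1.5, 6 and 24 hr. The 3 genes were Traf1, Birc2 and Birc3 at each of these times. Of the members, 6 reached a mean level of at least 100 over the 4 libraries, while Tnfrsf1b, Traf1, Birc2 and Xiap did not.

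**Figure D2:**
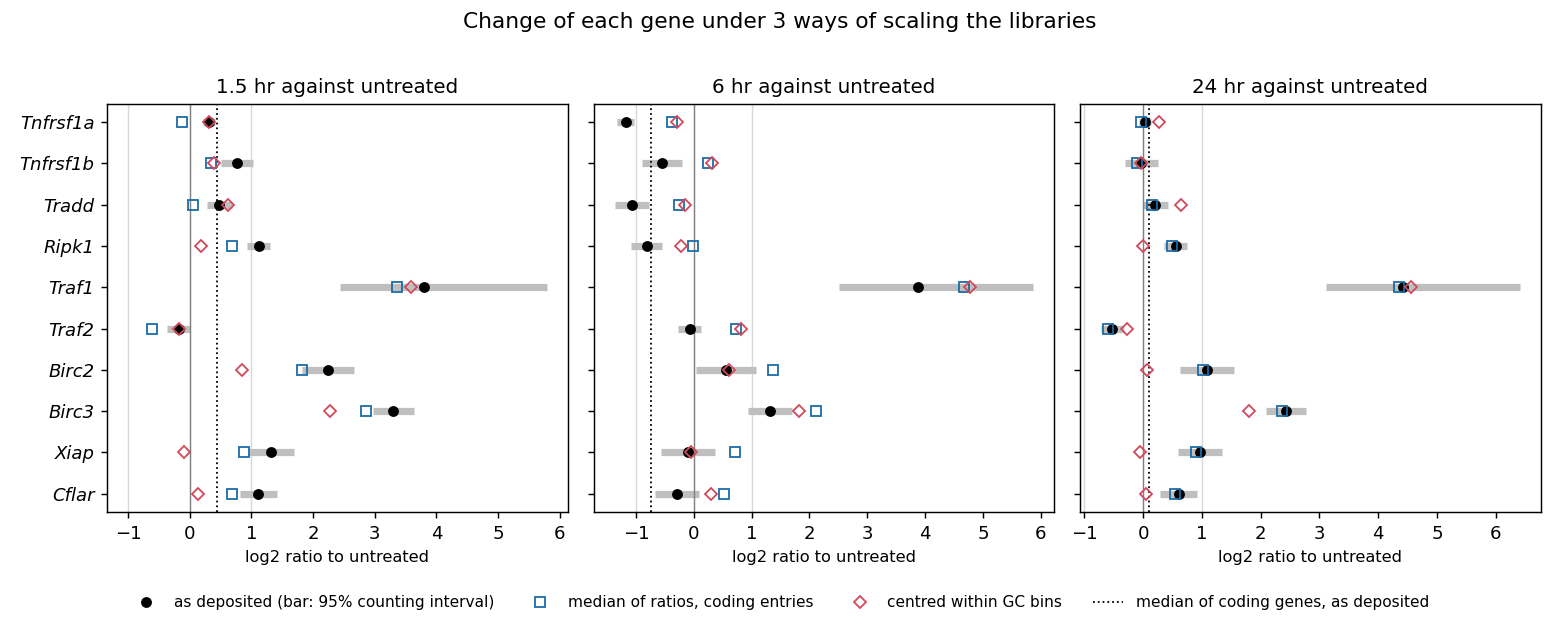
Log2 ratio of each gene to the untreated library at 1.5, 6 and 24 hr, as deposited (black, with the 95% counting interval in grey), after a median of ratios over coding entries (blue) and after centring within bins of GC content (red). Traf1 and Birc3 lie past 2-fold at all 3 times in each form, and most other genes lie nearer to 0 in red than in black at 1.5 hr.

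Tnfrsf1a (chr6:125299380-125312502, plus strand, mm9) encodes TNFR1, the receptor that most cells use to respond to soluble TNFα. Its level was 590 in untreated MEFs (R1 619 and R2 560), 731 after 1.5 hr, 262 after 6 hr and 601 after 24 hr. The 6 hr library was thus the low one, and the other 3 lay close together. The log2 ratio was 0.31 for 1.5 hr (95% counting interval 0.21 to 0.42), -1.17 for 6 hr (-1.32 to -1.03) and 0.03 for 24 hr (-0.08 to 0.13). After scaling the ratios were -0.12, -0.37 and -0.04, so the sign of the 1.5 hr ratio turned with the scaling, and the 6 hr level stayed below untreated at 0.775 times. Tnfrsf1a was therefore among the members with the flattest course once the lower sum of the 6 hr library was taken out.

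The second receptor gene, Tnfrsf1b (chr4:144803366-144836773, minus strand), encodes TNFR2, which is typical of lymphocytes and endothelium and responds best to membrane-bound TNFα. It stood at 48.1 in untreated MEFs, 82.0 after 1.5 hr, 32.8 after 6 hr and 47.1 after 24 hr. The 1.5 hr library was the highest, and the untreated and 24 hr libraries were nearly equal. The log2 ratios were 0.77, -0.55 and -0.03 as deposited, and 0.34, 0.25 and -0.10 after scaling, so the 6 hr value changed sign with the scaling. Tnfrsf1a was 12.2 times Tnfrsf1b in untreated MEFs, and between 7.98 and 12.8 times in the treated libraries, so TNFR1 was the main receptor transcript throughout.

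TRADD is the death-domain adaptor that docks on TNFR1. The gene (chr8:107782186-107788509, minus strand) had a level of 180 in untreated MEFs, 251 after 1.5 hr, 86.0 after 6 hr and 208 after 24 hr. This course followed that of Tnfrsf1a, high at 1.5 hr and low at 6 hr. The log2 ratios were 0.48, -1.07 and 0.21 as deposited and 0.05, -0.26 and 0.14 after scaling. After this scaling no ratio of Tradd or of the receptors reached 1.5-fold in either direction.

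RIPK1 is the kinase and scaffold that carries ubiquitin chains in the survival complex and triggers necroptosis with RIPK3. Ripk1 (chr13:34094232-34127039, plus strand) was at 101 in untreated MEFs, 218 after 1.5 hr, 57.3 after 6 hr and 148 after 24 hr. The 1.5 hr library was again the highest and the 6 hr library the lowest. Its log2 ratio was 1.12 for 1.5 hr (0.93 to 1.30), -0.81 for 6 hr (-1.08 to -0.55) and 0.55 for 24 hr (0.36 to 0.75), and after scaling 0.69, -0.01 and 0.49. Part of its exons overlap other genes. On the same strand 43.6% of the exon bases are shared with Gm17084, and on the opposite strand 4.98% are shared with Serpinb6a, which stood at 3112 in untreated MEFs. The libraries kept strand, but whether the counting used it was not given in the sources used here, so reads of Serpinb6a within Ripk1 cannot be told apart.

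Traf1 had the largest ratios of the 10 genes at every time. TRAF1 lacks the RING domain of the other TRAF proteins, pairs with TRAF2, and helps to recruit the cIAPs. The gene (chr2:34797270-34817292, minus strand) was at 2.04 in untreated MEFs (R1 2.05 and R2 2.03), 28.3 after 1.5 hr, 29.9 after 6 hr and 43.8 after 24 hr. All 3 treated libraries lay far above the untreated one, and as deposited Traf1 was the one member that was higher at 24 hr than at 1.5 hr. The ratio to untreated was 13.9 for 1.5 hr, 14.7 for 6 hr and 21.5 for 24 hr, with log2 ratios of 3.80 (2.44 to 5.79), 3.88 (2.50 to 5.87) and 4.43 (3.11 to 6.41). The intervals were wide because the untreated value corresponded to about 4 reads in each column, against 61, 54 and 107 reads in the treated libraries. Even the lower bounds exceeded 4-fold. After scaling the log2 ratios were 3.36, 4.68 and 4.36, which places the peak of the relative course at 6 hr rather than at 24 hr. In the deposited form these ratios lay above those of 99.7% of the 6050 coding genes at 1.5 hr and above 99.9% at 6 and 24 hr.

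Traf2 took a different course from Traf1. TRAF2 is the constitutive adaptor that links both receptors to the cIAPs. The gene (chr2:25373502-25402460, minus strand) was at 209 in untreated MEFs, 184 after 1.5 hr, 199 after 6 hr and 145 after 24 hr. The untreated library was the highest and the 24 hr library the lowest, and as deposited the highest was 1.44 times the lowest, the smallest range of the 10 genes. The log2 ratios were -0.18 for 1.5 hr (-0.37 to 0.01), -0.07 for 6 hr (-0.27 to 0.12) and -0.52 for 24 hr (-0.72 to -0.33). After scaling they were -0.61, 0.73 and -0.59, a wider course than that of either receptor, so the 6 hr value was above untreated once the low sum of that library was taken out, and the values at 1.5 and 24 hr were below it in every form. Consequently the level of Traf1 relative to Traf2, which needs no scaling between libraries, was 0.975% in untreated MEFs, 15.3% after 1.5 hr, 15.1% after 6 hr and 30.1% after 24 hr.

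The 3 IAP genes among the members encode inhibitor of apoptosis proteins with a RING domain. Birc3 (cIAP2; chr9:7848699-7873186, minus strand) was at 30.2 in untreated MEFs, 297 after 1.5 hr, 75.2 after 6 hr and 163 after 24 hr. Every treated library was higher than the untreated one, with the 1.5 hr library far above the rest. The ratio to untreated was 9.83 for 1.5 hr, 2.49 for 6 hr and 5.39 for 24 hr, with log2 ratios of 3.30 (2.97 to 3.63), 1.32 (0.93 to 1.70) and 2.43 (2.09 to 2.77). After scaling the log2 ratios were 2.87, 2.12 and 2.36. In the deposited form the ratios of Birc3 lay above those of 99.5%, 98.8% and 99.1% of the 6050 coding genes at the 3 times. By level, Birc3 ranked seventh of the 10 members in untreated MEFs, and at 1.5 hr it was second only to Tnfrsf1a.

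Its neighbour on chromosome 9 is Birc2 (cIAP1; chr9:7818236-7835255, minus strand), the ligase usually found in resting cells. Birc2 was at 17.5 in untreated MEFs, 82.8 after 1.5 hr, 25.7 after 6 hr and 37.0 after 24 hr. As deposited, the order of the libraries was that of Birc3, with smaller steps. The log2 ratios were 2.25 (1.82 to 2.67), 0.56 (0.04 to 1.08) and 1.08 (0.63 to 1.54), and 1.82, 1.36 and 1.02 after scaling, which put the 6 hr library of Birc2 above the 24 hr one. Birc3 was above Birc2 in every library, by 1.73 times before TNFα and by 2.93 to 4.40 times in the treated libraries. The transcripts shared 65 runs of 50 bases, 2.11% of those of Birc2 and 2.48% of those of Birc3, so few reads could have been placed on either gene.

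XIAP inhibits caspases by direct binding. Xiap (chrX:39412856-39462833, plus strand) was the lowest member after Traf1 in the untreated library and the lowest of all at 6 and 24 hr. It stood at 13.3 in untreated MEFs, 33.1 after 1.5 hr, 12.4 after 6 hr and 25.8 after 24 hr. The untreated and 6 hr libraries were alike, and the other 2 lay above both. The log2 ratios were 1.32 (0.96 to 1.69), -0.09 (-0.57 to 0.36) and 0.96 (0.59 to 1.34), and 0.89, 0.71 and 0.89 after scaling. Its transcript is the longest of the 10 and the poorest in G and C, at 38.2%.

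Cflar (chr1:58768352-58815728, plus strand) encodes c-FLIP, a catalytically inactive relative of caspase-8 that blocks its activation. The entry used was at 74.4 in untreated MEFs, 161 after 1.5 hr, 61.1 after 6 hr and 113 after 24 hr. The 1.5 hr library was the highest and the 6 hr library the lowest. The log2 ratios were 1.11 (0.82 to 1.41), -0.28 (-0.67 to 0.09) and 0.60 (0.29 to 0.91), and 0.68, 0.52 and 0.54 after scaling. The other RefSeq entry of the gene was at 77.2, 125, 74.1 and 98.2 in the same order of libraries. Its log2 ratios were smaller in size, at 0.70, -0.06 and 0.35, and the 1.5 hr ratio of that entry did not reach 2-fold.

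Base composition moved with several of these ratios. At 1.5 hr the coding genes in the bin of GC content that holds Birc2 and Xiap had a median log2 ratio of 1.41, against -0.004 in the bin of Tnfrsf1a and Traf2. At 24 hr these medians were 1.01 and -0.24. Relative to the genes of the same GC content, Birc3 had log2 ratios of 2.27, 1.81 and 1.80, and Traf1 of 3.59, 4.78 and 4.56. These were the only members still 2-fold higher, at all 3 times. Birc2 had 0.84, 0.61 and 0.07, and Xiap -0.09, -0.04 and -0.05. Ripk1 had 0.18, -0.22 and 0.00, and Cflar 0.14, 0.29 and 0.06. The members richest in G and C were as high as in the deposited form or higher, with Tradd at 0.61, -0.15 and 0.65, Tnfrsf1a at 0.31, -0.28 and 0.27, and Traf2 at -0.18, 0.82 and -0.28. Tradd thus passed 1.5-fold at 1.5 and 24 hr in this form alone. Tnfrsf1b had 0.40, 0.32 and -0.04. The higher values of Birc2 at 24 hr, and of Xiap, Ripk1 and Cflar at 1.5 and 24 hr, were thus close to those of other genes with the same base composition. Whether base composition had a part in them was not tested.

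H3K4me3 in untreated MEFs covered a coding start of 9 of the 10 genes, against 53.8% of 19708 coding genes with an annotated start. Among coding genes with a mean level of at least 100, 92.2% had a covered start, so a peak was the usual case at that level. Tnfrsf1b, Birc2 and Xiap had peaks but did not reach this level. Of coding genes with an untreated level within 2-fold of that of Xiap, 62.7% had a covered start. Traf2 had the highest fold enrichment over input, 89.9, in a peak of 844 tags. Cflar followed with 76.5 and 1722 tags, Tradd with 62.7 and 1038, Ripk1 with 58.1 and 1355, and Tnfrsf1a with 55.9 and 2294. The tag count of Tnfrsf1a was the highest of the 10 and its peak the longest, at 7780 bp (chr6:125298438-125306217). These 5 genes were also the 5 with the highest untreated RNA level.

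The IAP genes and Tnfrsf1b had peaks of lower fold enrichment, although that of Birc2 held more tags than those of Ripk1, Tradd and Traf2. Fold enrichment was 42.7 for Birc3 (562 tags, chr9:7871391-7874074), 32.6 for Tnfrsf1b (501 tags), 26.3 for Birc2 (1408 tags) and 20.8 for Xiap (580 tags), beside a median of 45.5 and 1049 tags over all 11157 peaks. The peak of Birc3, a gene 9.83-fold higher at 1.5 hr, was thus present before TNFα, and it covered all 5 of its coding starts. That of Xiap covered 4 of 5. The list holds no peak under 20-fold enrichment, so Xiap was near its lower limit.

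None of the 4 coding starts of Traf1 lay under a peak or within 5 kb of one. The nearest peak (chr2:34768137-34770565, 392 tags, 24.7-fold) began 43.1 kb from a start, in the direction of transcription and past the end of the gene. Of 1435 coding genes with an untreated RNA level within 2-fold of that of Traf1, 21.5% had a peak within 1 kb of a start, and 44.5% had none within 40 kb. The absence of a listed peak at Traf1 was therefore common for a gene of its level. A weaker enrichment would not be listed, and H3K4me3 was not measured after TNFα.

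**Figure D3:**
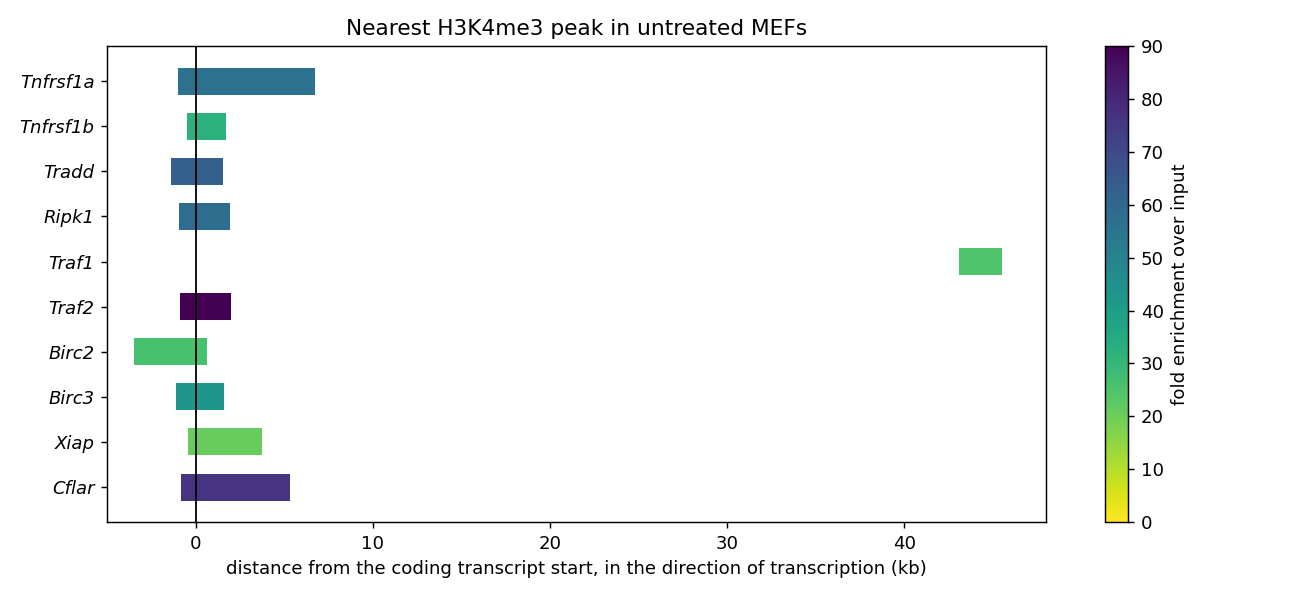
Position of the nearest H3K4me3 peak of each gene in untreated MEFs, in kb from a coding start (0) in the direction of transcription, with fold enrichment over input as colour. Of the peaks, 9 cover a start, and that of Traf1 lies 43.1 kb away.

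Other genes of the pathway were read from lists of 27 complex proteins and kinases, 22 further receptors of the TNF receptor superfamily, 5 other TRAF genes, 6 other BIRC genes and 3 ligands. Among the complex proteins and kinases, 19 had a mean level of at least 100. Of these, 10 were 2-fold higher and 1 was 2-fold lower at 1.5 hr, 2 higher and 3 lower at 6 hr, and 7 higher and 3 lower at 24 hr. Of all 6050 coding genes of this level, 29.8% were higher and 7.97% lower at 1.5 hr, 1.83% and 31.5% at 6 hr, and 16.8% and 12.8% at 24 hr. After scaling the counts of the list were 7 and 3, 5 and 0, and 7 and 3, and the shares of all coding genes were 16.1% and 17%, 8.12% and 2.5%, and 15.2% and 14.6%. The median log2 ratio of these 19 genes was 1.04, -0.23 and 0.78, beside 0.44, -0.74 and 0.10 for coding genes. After scaling it was 0.61, 0.57 and 0.71, so its sign at 6 hr turned.

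Tnfaip3 and Tank had the largest ratios of this list. Tnfaip3, which encodes the ubiquitin-editing enzyme A20, was at 7.13 in untreated MEFs, 399 after 1.5 hr, 70.8 after 6 hr and 149 after 24 hr. Tank, a TRAF-binding adaptor of the TBK1 kinases, was at 17.6, 172, 75.8 and 214. Both were higher in every treated library, and Tank was highest at 24 hr, as deposited and after scaling. Tnip1, a partner of A20, was at 209, 652, 306 and 558. Among the kinases, Map3k7, which encodes TAK1, was at 61.6, 194, 58.1 and 134, and its chain-binding subunit gene Tab2 at 136, 452, 114 and 344. Ube2n, the enzyme for the K63-linked chains that TAB2 binds, was at 120, 413, 135 and 389. As deposited these 3 genes were highest at 1.5 hr, while after scaling Ube2n was highest at 24 hr, with log2 ratios of 1.36, 0.98 and 1.63.

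Of the complex genes that were lower, the rule named Tab1 and Map3k14. Tab1 encodes another partner of TAK1. Map3k14 encodes NIK, the kinase of the non-canonical pathway that TRAF2 and the cIAPs keep low. Tab1 was at 356 in untreated MEFs, 157 after 1.5 hr, 145 after 6 hr and 131 after 24 hr. Its log2 ratio was -1.18, -1.30 and -1.44, and -1.61, -0.50 and -1.51 after scaling. Map3k14 was at 185, 97.6, 71.0 and 79.6, with scaled log2 ratios of -1.36, -0.58 and -1.28. The other lower calls as deposited, which were looked up after the counts were seen, were Sharpin at 6 hr (-1.07, or -0.27 after scaling) and Rnf31 at 24 hr (-1.21, or -1.28), both subunits of the ligase for linear ubiquitin chains. So the partner genes of TAK1 went in opposite directions at 1.5 and 24 hr, with Tab2 above and Tab1 below untreated in both forms. For the genes of these lists, ratios centred by GC content are not given. Whether base composition had a part in their ratios was not tested.

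Of the 22 other receptors, 9 had a mean level of at least 100, and 2 of these were 2-fold higher and 1 lower at 1.5 hr, 1 higher and 3 lower at 6 hr, and 4 higher and 1 lower at 24 hr. Of all coding genes of this level, 29.8% were higher and 7.97% lower at 1.5 hr, 1.83% and 31.5% at 6 hr, and 16.8% and 12.8% at 24 hr. The counts at 1.5 hr, and the lower counts at 6 and 24 hr, were near these shares. The 3 lower at 6 hr became 1 after scaling, while the other counts were the same. Fas, a death receptor that shares the caspase-8 pathway, was at 16.0 in untreated MEFs, 321 after 1.5 hr, 87.1 after 6 hr and 106 after 24 hr. Tnfrsf12a, the receptor of TWEAK, was at 331, 1255, 344 and 1021. Tnfrsf18, known as GITR in T cells, was at 275, 90.7, 64.5 and 121, lower in every treated library in both forms. The receptors of TNFα itself had log2 ratios of 0.31 and 0.77 at 1.5 hr, beside a median of 0.82 over these 9 receptors. No other TRAF gene was 2-fold changed among the 2 that reached the level, and of 2 other BIRC genes 1 was lower at 6 hr, where 31.5% of coding genes were, and none after scaling. None of the 3 ligand genes reached it, and Tnf itself was at 43.9, 136, 46.7 and 55.6.

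**Figure D4:**
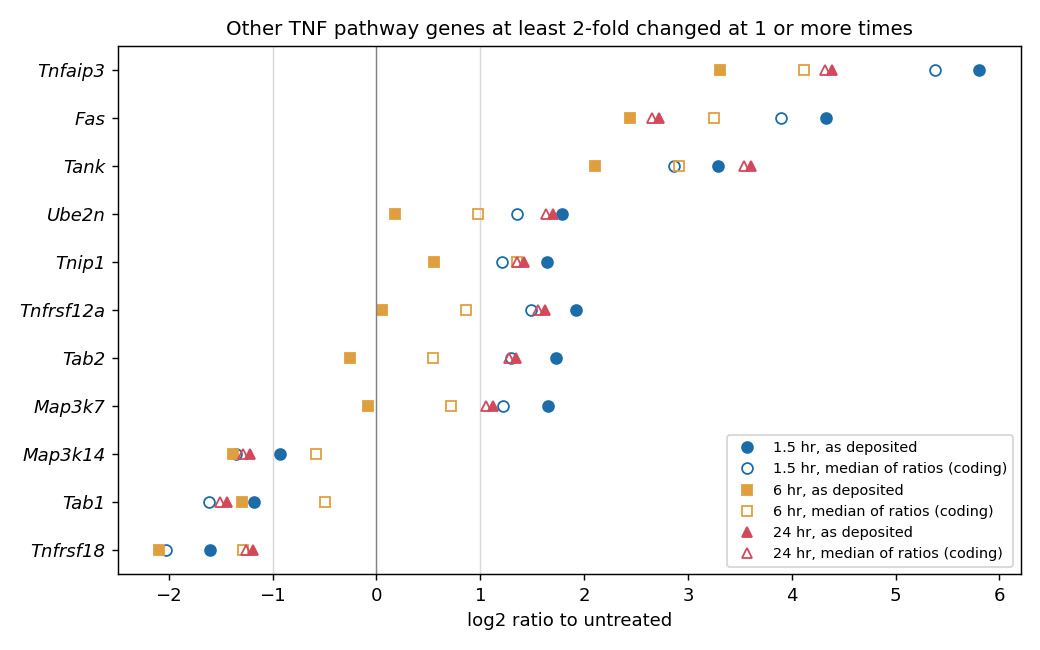
Log2 ratio to untreated of 11 named pathway genes at 1.5, 6 and 24 hr, as deposited (filled) and after a median of ratios over coding entries (open), with grey lines at 2-fold. Of the genes, 8 lie above untreated at 1.5 and 24 hr, led by Tnfaip3, Fas and Tank, and Map3k14, Tab1 and Tnfrsf18 lie below it.

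Genes with the course most like that of a member were found by the Euclidean distance over the 3 log2 ratios among the 6050 coding genes. Rpl23, Epb4.1l1 and Ptpn21 were nearest to Tnfrsf1a, at distances of 0.010, 0.020 and 0.036. Nup188, Mdm4 and Igfbp5 were nearest to Tnfrsf1b, at 0.094, 0.105 and 0.105. For both receptors, then, the nearest genes had nearly the same 3 ratios as deposited. For Traf1 the nearest were Nfkbia, Gbp2 and Ccl7, at 1.11, 1.21 and 1.22. Traf1 itself, with a mean level of 26.0, and Tnfrsf1b, with 52.5, did not reach the level asked of the 6050 genes. Genes of their own mean levels were therefore not searched. For Traf1, the counting interval of the log2 ratio at 1.5 hr, 2.44 to 5.79, was also wider than the distances of its nearest genes. The search thus cannot show whether other genes shared the course of Traf1. As deposited Nfkbia, which encodes IκBα, had log2 ratios of 4.50, 3.06 and 4.18, lower at 6 hr than at the times around it, where Traf1 had 3.80, 3.88 and 4.43.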

How the data were processed

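RNA-seq values were analysed for 4 libraries, and H3K4me3 peaks for 1 ChIP-seq library called against input. The authors aligned the RNA reads with TopHat (mm9) and derived RPKM for each RefSeq transcript, and the deposited RPKM columns are on a scale of their own. For H3K4me3 the authors used Bowtie and then MACS. Each deposited peak has a tag count, the fold over input, the FDR as a percent, and a score based on the p-value that entered no comparison. Columns were assigned to times through the study's list of sequencing depths. What R1 and R2 hold was not given in the sources used here, so their mean was used and they were not treated as replicates. In the labels, the 24 hr library has the extraction text of the ChIP samples, while its title, treatment, molecule and source of the library mark it as RNA-seq.

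Per gene the entry with the highest mean was used, no pseudocount was added, and the call was 2-fold. Background shares cover coding genes above 0 in either library of a comparison, or with a mean of at least 100 in the 4. Genes at 0 in the other library of the comparison were kept and counted as past 2-fold. The 10 members and the lists were chosen with earlier results of these data known. Named genes were the members, at most 12 list genes 2-fold changed in both forms and both columns, and the 3 coding genes nearest to 3 members. A named gene of the lists and a marker are not reported here.

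After seeing the data, reads were estimated from the steps of low values and the transcript length. For each member, the length was that of the shortest transcript among those with the gene's longest coding sequence. Between 69.9% and 75.9% of low values came within 0.1 read of a whole number, where evenly spread values would give 20%. The intervals are exact (Clopper-Pearson) 95% binomial intervals on the mean estimated reads of a column. They cover counting error only, not variation between cultures. The search of the windows was also added after seeing the data. GC content was found for 98.0% of coding genes of this level, in 20 bins. Python 3.11.15, numpy 2.4.6, pandas 2.3.3 and scipy 1.17.1 were used, and the steps were tested on simulated data.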

Additional observations from a re-analysis of the deposited data

Results flagged for a closer look

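Of the 10 genes, 6 lay above untreated at one time and below it at another, in both columns, as deposited. None of these differences was tested, since each time is 1 library. The difference of the log2 ratios, 1.5 hr minus 6 hr, was 1.48 for Tnfrsf1a, 1.32 for Tnfrsf1b, 1.55 for Tradd, 1.93 for Ripk1, 1.41 for Xiap and 1.40 for Cflar. For 6 hr minus 24 hr it was -1.28 for Tradd, -1.37 for Ripk1, -1.05 for Xiap and -0.89 for Cflar. All 10 involve the 6 hr library, whose sum was 0.563 times that of the untreated library. After scaling by a median of ratios over coding entries, 4 of the 10 still had opposite directions. These were Tradd and Ripk1, each at 1.5 against 6 hr and at 6 against 24 hr. The difference was then 0.31 and -0.41 for Tradd, and 0.69 and -0.50 for Ripk1, whose 6 hr log2 ratio was -0.01.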

How the results depend on the processing

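No paired analysis was possible because each time is 1 library and the labels carry no replicate numbers. The medians of the 10 log2 ratios moved under most alternatives, where moved means by more than the larger difference of a column from the mean of both. At 1.5 hr (1.12 as deposited) the median was 0.87 scaled to the sum, 0.70 and 0.68 by the median of ratios over all and coding entries, 0.75 by the trimmed mean, 0.36 centred by GC content, 0.95 and 0.33 with pseudocounts of 10 and 100, and 1.02 with all entries of a gene summed. At 6 hr (-0.19) it was 0.64, 0.62, 0.62, 0.55 and 0.30 under the same 5 scalings, -0.082 with a pseudocount of 100 and -0.13 with entries summed. At 24 hr (0.58) it was 0.63, 0.53, 0.51, 0.56 and 0.065, 0.53 and 0.19 with the pseudocounts, and 0.52 with entries summed. The 6 genes 2-fold higher at 1.5 hr became 3 by either median of ratios, by the trimmed mean or at 3-fold, 2 by GC content and 1 with a pseudocount of 100. At 6 hr the 2 higher genes became 0 with a pseudocount of 100 and 1 at 3-fold, and the 2 lower ones became 1 with a pseudocount of 10 and 0 under every scaling, with a pseudocount of 100 or at 3-fold. At 24 hr the 3 higher genes became 1 with a pseudocount of 100 and 5 at 1.5-fold. They became 4 when scaled to the sum or in the R1 column alone. By GC content, with a pseudocount of 10 or in the R2 column alone they became 2. Of the single ratios past 2-fold as deposited, that of Xiap at 1.5 hr was the only one to change sign, to -0.090 by GC content. Smaller ratios also changed sign by the median of ratios over coding entries, such as those at 6 hr of Tnfrsf1b (-0.55 to 0.25), Cflar (-0.28 to 0.52) and Traf2 (-0.07 to 0.73) and that at 1.5 hr of Tnfrsf1a (0.31 to -0.12). A column alone moved none of the 30 ratios, by construction. A filter of 40-fold enrichment left 6 of the 9 genes with a peak. The untreated value of Traf1, about 4 reads, limits the precision of its ratios, and the spread between cultures is unknown.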
